A study of Mus musculus with 24 samples.

Results

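Transcripts of 9 genes of cyclic AMP (cAMP) signalling were followed in the mouse RPE (retinal pigment epithelium), the pigmented cells behind the photoreceptors. They comprise 3 adenylyl cyclases (Adcy1, Adcy3 and Adcy9), 4 phosphodiesterases (Pde4b, Pde4d, Pde7b and Pde8b) and 2 further genes, the cAMP-responsive factor Crem and the G protein regulator Rgs2. The genes were chosen by name out of 54532 genes in the deposited table, with their time courses already known, because Adcy1 is lower at midday and Pde8b is lower at night. These contrasts are therefore described below, and where a later count of test results includes the 9 genes, nothing is read from it. All 9 were among the 18065 genes that passed the filter on low counts. The 24 libraries come from 3 mice at each of 8 times, 0, 1, 3, 5, 6, 9, 15 and 16 h after the light came on. Every mouse was a wild-type 129S1/SvlmJ animal with the Leu450 form of Rpe65, kept on a standard diet in cyclic light with 12 h of light, and no age was given in the sources used here. Night means the 6 libraries of 15 h and 16 h, set against the 15 day libraries of 1 to 9 h, and midday means the 6 libraries of 5 h and 6 h, set against the 3 libraries of light onset (0 h).

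Cyclic AMP is made from ATP by adenylyl cyclases, most of them under the control of G protein-coupled receptors, and is broken down by phosphodiesterases, so its level depends on both enzyme groups. It acts through protein kinase A, the Epac exchange factors and cAMP-gated channels, and protein kinase A in turn phosphorylates CREB-family factors that bind the cAMP response element (CRE). In the RPE, cAMP is known as a regulator of ion and fluid transport, of the uptake of photoreceptor outer segments and, in fish and frogs, of pigment granule movement.

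Promoter sequences are shown for Adcy1, Pde4b and Pde8b, the genes whose midday and onset, or night and day, libraries did not overlap. RefSeq promoter entries (GRCm38.p6) were found for 8 of the 9 genes. Each entry was searched on both strands for the E-box CACGTG, bound by clock activators, for the full CRE TGACGTCA and its core TGACG, for the D-box TTATGCAA or TTATGTAA, and for the ROR element core AGGTCA. Of 32851 entries of the same length, 250 bases before to 50 after the start, the E-box is in 7.15%, the full CRE in 1.79%, the CRE core in 20.8%, the D-box in 1.66% and the ROR core in 16.3%. The 250 bases before the start are printed 5′ to 3′ in the direction of the gene, with capitals marking the E-box in Adcy1 and the CRE core, read on the opposite strand, in Pde4b.
Adcy1 (chr11:7063183-7063432, plus strand): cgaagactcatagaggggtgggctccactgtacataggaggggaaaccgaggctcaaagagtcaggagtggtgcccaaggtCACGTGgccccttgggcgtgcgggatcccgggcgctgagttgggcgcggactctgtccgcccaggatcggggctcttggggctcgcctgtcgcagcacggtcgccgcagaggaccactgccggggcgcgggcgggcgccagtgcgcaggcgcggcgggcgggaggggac
Pde4b (chr4:102421305-102421554, plus strand): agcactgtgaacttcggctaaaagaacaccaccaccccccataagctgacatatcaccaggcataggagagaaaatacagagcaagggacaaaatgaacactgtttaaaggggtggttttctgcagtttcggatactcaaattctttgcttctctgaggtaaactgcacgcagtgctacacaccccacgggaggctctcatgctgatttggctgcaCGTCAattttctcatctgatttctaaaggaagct
Pde8b (chr13:95250290-95250539, minus strand): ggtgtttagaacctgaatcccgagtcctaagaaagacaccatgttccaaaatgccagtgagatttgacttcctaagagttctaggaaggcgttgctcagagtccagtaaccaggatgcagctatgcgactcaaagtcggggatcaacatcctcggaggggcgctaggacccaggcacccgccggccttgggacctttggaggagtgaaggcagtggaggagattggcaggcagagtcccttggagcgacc
The Adcy1 entry holds 1 E-box, at position -169 from the start, and a ROR core that overlaps it at -173. The Pde4b entry is 1 of 4 and holds 1 CRE core at -34, and among the other Pde4b entries a ROR core lies at position 21 after the start in 1. The Pde8b entry printed holds none of these motifs, and among all 5 entries of that gene the search found a single CRE core, at position 38 after the start. Of the remaining genes, Rgs2 holds 2 CRE cores (-185 and -67) and Adcy9 holds 1 (-24). A match is a description of the letters in this window and not evidence of a bound site.

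The libraries held 14073440 to 17492470 counts. The libraries of mouse 3 of 6 h and of mouse 3 of 15 h differed from all others, with scores of 49.3 and 199.9 on the first principal component (38.2% of variance), against scores from -25.1 to -3.5 in the remaining 22. Ribosomal protein genes took 2.38% and 5.12% of their counts, against 1.18% to 1.68% in the others. Results are therefore given over 24 libraries and over the 22 without these mice. All 14 RPE markers were tested, and their summed level was 38580 to 117100 CPM (read counts relative to library size, scaled by TMM), the highest in mouse 3 of 15 h. Markers of rods, cones, inner retina, choroid vessels, fibroblasts and macrophages were also measured, and no listed marker was at 0 in all libraries. In bulk RNA, fewer cells of a type and less RNA per cell cannot be told apart.

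Adcy1 had the highest level of the 9 genes per length, with a median of 26.3 TPM (counts scaled by gene length and library size) over 24 libraries. Rgs2 followed at a median of 17.1 TPM, then Adcy9 at 12.5, Pde4b at 12.0, Adcy3 at 10.3 and Pde8b at 9.29 TPM. Crem (4.64 TPM), Pde7b (4.34 TPM) and Pde4d (1.64 TPM) were lowest. Adcy1 was above Rgs2 in 20 of 24 libraries, while Adcy9 was above Pde4b in only 12 and Crem above Pde7b in 15, so these neighbours in the order were not separated beyond their spread. Pde7b was above Pde4d in all 24. Among family members outside the group, Adcy6, a cyclase inhibited by calcium, had a median of 30.9 TPM, Adcy7 18.3 TPM and Pde1c, a calmodulin-dependent phosphodiesterase, 17.7 TPM.

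**Figure D1:**
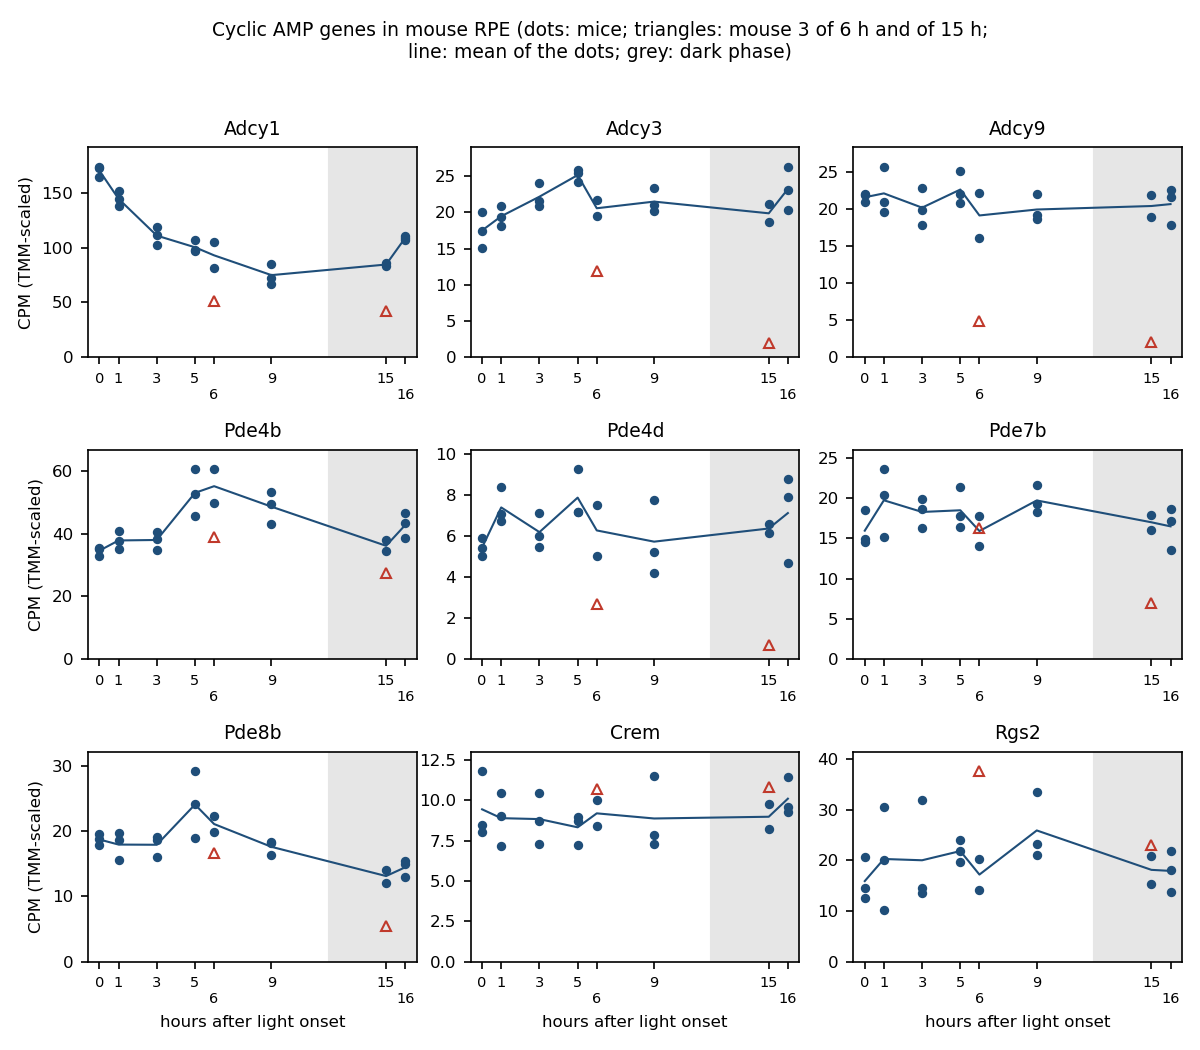
Level of each of the 9 genes in CPM (vertical axes, from 0) against hours after light onset, 1 dot per mouse, lines through the means of the dots, red triangles for mouse 3 of 6 h and mouse 3 of 15 h, which are left out of the lines, and grey for the dark phase. Adcy1 is highest at 0 h (164 to 174 CPM) and lies below that at every later time, Pde4b is highest at 5 h and 6 h, and Pde8b is lowest at 15 h and 16 h.

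Adcy1 (ENSMUSG00000020431, GRCm38 chromosome 11, 7063489 to 7178506, plus strand) encodes a cyclase stimulated by calcium and calmodulin, known from neurons and also from photoreceptors. At light onset its levels were 174, 172 and 164 CPM, and at 1 h they were 144, 138 and 152 CPM. At 3 h they were 103, 111 and 119 CPM, at 5 h 96.7, 107 and 97.7 CPM, and at 6 h 105, 81.2 and 51.1 CPM. The lowest of the midday values, 51.1 CPM, is that of mouse 3 of 6 h, and no midday library reached any library of 0 h or 1 h. At 9 h the level was 67.2, 72.6 and 85.2 CPM, at 15 h 83.4, 85.8 and 42.6 CPM and at 16 h 109, 107 and 110.4 CPM. All 3 libraries of 16 h were above all 3 of 15 h and all 3 of 9 h. The share of all genes separated in this way between single times was not computed.

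The midday mean of Adcy1 was 89.7 ± 20.9 CPM (SD, n = 6) and the onset mean 170.3 ± 5.20 CPM (n = 3), a log2 difference of -0.93 ± 0.18 (SE). Over the 22 libraries it was -0.81 ± 0.07. This contrast chose the gene. A fitted 24 h curve had a peak-to-trough log2 ratio of 1.33 ± 0.15 and a peak at 22.5 ± 0.5 h, a time with no samples, since none were taken between 16 h and the next light onset. The 22 libraries gave 1.21 and 22.3 h.

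The steps between neighbouring times belong to the time courses known when the genes were chosen, so they are given as a description. The 9 h levels of Adcy1 were 67.2 to 85.2 CPM, against 103 to 119 CPM at 3 h, with no overlap, a log2 difference of -0.57 ± 0.21 over 24 libraries and -0.57 ± 0.09 over 22. How many of all genes had no overlap between these times was not computed. The step of 3 h against 1 h was -0.38 ± 0.21 over 24 libraries and -0.38 ± 0.08 over 22. Within the night, the difference of 16 h against 15 h was 0.62 ± 0.21 over 24 libraries and 0.37 ± 0.10 over 22. Over 30 alternatives (other filters, scalings and tools, and each library left out) the midday difference of Adcy1 ranged between -1.07 and -0.81.

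Rod markers moved in the same direction as Adcy1 between onset and midday. All 13 had a lower estimate at midday, with a median log2 difference of -1.09, and none was called by edgeR's quasi-likelihood test (a call is a Benjamini-Hochberg adjusted p under 0.05 across every gene tested). Their summed level was 704 to 2309 CPM at midday, against 2610 to 4072 CPM at onset, and none of the 13 was at 0 in all libraries. At 1 h the rod sum was 686 to 1656 CPM, and Adcy1 was at 138 to 152 CPM. At 9 h the rod sum was 465, 1076 and 470.4 CPM and at 16 h 876, 1597 and 509 CPM. Across the 22 libraries, which share times and preparation, the rank correlation of Adcy1 with the rod sum was 0.62, and across 24 it was 0.36. The part of rod RNA in the Adcy1 difference was not tested. Of 9 cone markers, 6 had a lower estimate at midday, with a median difference of -0.81, and none was called. Their summed level was 38.5 to 74.45 CPM at midday, against 62.6 to 95.4 CPM at onset. The cone marker Pde6c went the other way, at 0.65 over 24 libraries. Of 14 inner retina markers tested, 11 had a lower estimate at midday (median -0.51), and none was called. Their sum was 1906 to 2196 CPM at midday, against 2023 to 2074 CPM at onset. The part of either list in the Adcy1 difference was not tested.

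**Figure D2:**
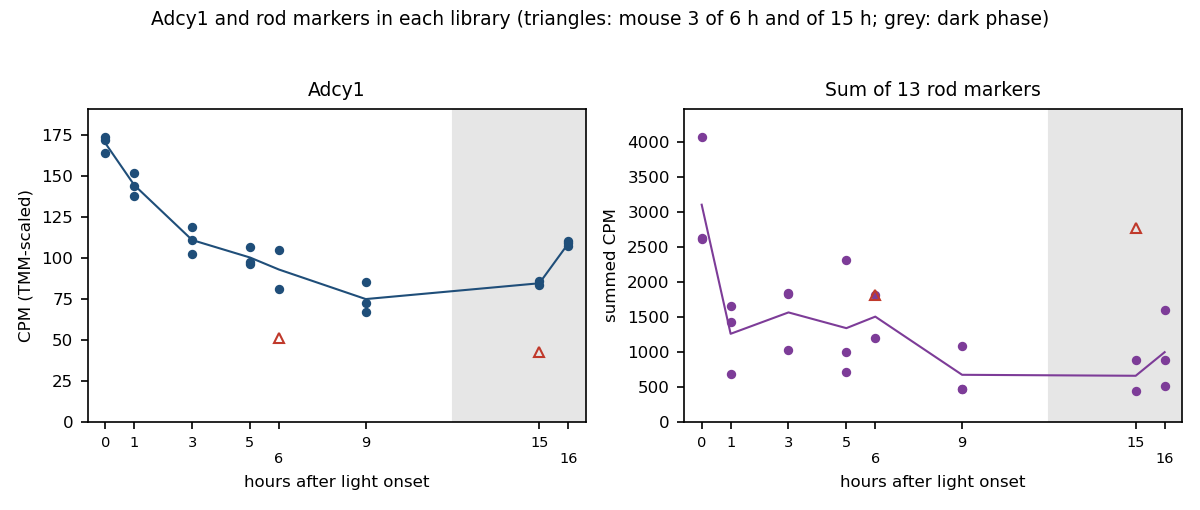
Adcy1 (left, CPM) and the sum of 13 rod markers (right, CPM) against hours after light onset, 1 dot per mouse with lines through the means of the dots, and red triangles for mouse 3 of 6 h and mouse 3 of 15 h. Both are highest at 0 h. At 1 h the rod sum is 686 to 1656 CPM and Adcy1 is at 138 to 152 CPM.

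Adcy3 (ENSMUSG00000020654, chromosome 12, 4133103 to 4213525, plus strand) encodes the cyclase of olfactory and primary cilia. At 5 h its levels were 25.4, 25.9 and 24.2 CPM and at 6 h 19.4, 21.7 and 12.0 CPM, against 15.1, 20.04 and 17.4 CPM at onset. The 3 mice of 5 h were above all onset mice, but those of 6 h overlapped them. The share of all genes without overlap at 5 h was not computed. The midday difference was 0.27 ± 0.37 on the log2 scale over 24 libraries and 0.38 ± 0.10 over 22. Of its exonic bases, 22.1% are shared with Cenpo on the opposite strand, and the libraries do not mark strand, so its level is less certain. In mouse 3 of 15 h Adcy3 was at 1.98 CPM, against 18.1 to 26.3 CPM in the other libraries from 1 h on apart from mouse 3 of 6 h.

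Adcy9 (ENSMUSG00000005580, chromosome 16, 4287529 to 4420498, minus strand) encodes a widely expressed cyclase that responds weakly to forskolin. Over 22 libraries it varied least over time among the 3 cyclases of the group. Its fitted times spanned 0.24 on the log2 scale, against 0.53 for Adcy3 and 1.18 for Adcy1. Adcy9 averaged 21.3 ± 3.29 CPM at midday (n = 5) and 21.6 ± 0.57 CPM at onset (n = 3) over 22 libraries. Its night mean was 20.6 ± 2.09 CPM (n = 5) and its day mean 21.0 ± 2.68 CPM (n = 14), with log2 differences of -0.05 ± 0.12 for midday and -0.02 ± 0.09 for night. In the mice set apart it was at 4.85 CPM (6 h) and 2.07 CPM (15 h), so over 24 libraries the estimates were -0.26 ± 0.42 and -0.18 ± 0.29.

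The 6 other cyclases tested, of 7 listed, gave 0 calls in all 8 comparisons over 24 libraries by edgeR. At an unadjusted p under 0.05, 2 passed over time, 2 for 24 h, 1 at midday and 2 at night. The share of all genes at that level was not computed for these comparisons, so nothing is read from the counts. DESeq2 called Adcy5 and Adcy7 over time, Adcy5 for the 24 h component and at midday, and Adcy7 at night. Limma-voom called Adcy5 for the 24 h component. The share of all genes called was not computed for DESeq2 or limma-voom, so nothing is read from these calls. Over the 22 libraries edgeR called Adcy7 (adjusted p = 0.000486) and Adcy5 (0.0221) over time and Adcy5 for the 24 h component (0.0366). Of all genes, 15.6% were called over time in that set, 6.12% for 24 h, 5.07% at midday, 4.63% at night and 1.82% for 9 h against 3 h. Adcy5, a cyclase inhibited by calcium, fell by 0.64 ± 0.17 at midday (adjusted p = 0.0283), to 10.1 to 13.5 CPM in 5 libraries, against 15.7 to 21.3 CPM at onset. Adcy7 fell by 0.36 ± 0.07 at night (adjusted p = 0.00372), with 31.0 to 39.1 CPM in 5 night libraries and 37.0 to 66.9 CPM in 14 day libraries. Adcy7 was also higher at 9 h than at 3 h by 0.47 ± 0.11 (adjusted p = 0.0212), where 0 cyclases were called over 24 libraries and 1 had an unadjusted p under 0.05.

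Pde8b (ENSMUSG00000021684, chromosome 13, 95024454 to 95250336, minus strand) encodes a phosphodiesterase with high affinity for cAMP that the inhibitor IBMX does not block. At 15 h its levels were 12.1, 14.1 and 5.41 CPM and at 16 h 14.9, 15.4 and 12.9 CPM. The 15 day libraries had a lowest value of 15.5, a median of 18.7 and a highest value of 29.2 CPM. No night library overlapped any day library, with or without mouse 3 of 15 h, although the gap between 15.4 and 15.5 CPM is small. At 0 h the level was 17.9, 18.7 and 19.5 CPM, also above every night library.

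The night mean of Pde8b was 12.5 ± 3.68 CPM (n = 6) and the day mean 19.4 ± 3.53 CPM (n = 15), a log2 difference of -0.64 ± 0.14. Over 22 libraries it was -0.51 ± 0.09. This contrast chose the gene, and 0.083% of genes were lower at night without overlap over 24 libraries and 0.21% over 22. The highest single values fell at 5 h, with 29.2, 24.1 and 18.9 CPM, and a fitted 24 h curve had a ratio of 0.73 ± 0.21 with a peak at 4.4 ± 0.6 h. The step of 9 h against 3 h was -0.03 ± 0.23. That of 16 h against 15 h was 0.45 ± 0.23 over 24 libraries and 0.15 ± 0.15 over 22. Over the 30 alternatives the night difference ranged between -0.77 and -0.49. Of its exonic bases, 7.6% are shared with Gm48420 on the opposite strand. Choroid endothelium markers were lower at night in 8 of 9 cases (median -0.36, summed level 469.9 to 699 CPM at night and 474 to 1076 CPM by day), none of the 9 was called, and none was at 0 in all libraries. Fibroblast and mural markers were lower at night in 7 of 11 cases (median -0.09, summed level 1858 to 2435 CPM at night and 1797 to 2718 CPM by day), with 2 called lower and 1 called higher. The part of either list in the Pde8b difference was not tested.

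Pde4b (ENSMUSG00000028525, chromosome 4, 102087543 to 102607259, plus strand) encodes a cAMP-specific phosphodiesterase blocked by rolipram. Its levels were 60.6, 52.7 and 45.5 CPM at 5 h and 60.5, 49.6 and 38.8 CPM at 6 h, against 35.2, 32.9 and 35.5 CPM at onset. All midday libraries were above all onset libraries. The midday mean was 51.3 ± 8.54 CPM (n = 6) and the onset mean 34.6 ± 1.42 CPM (n = 3), a log2 difference of 0.57 ± 0.13, or 0.65 ± 0.10 over 22 libraries. Higher at midday without overlap were 3.89% of genes over 24 libraries and 6.63% over 22, and lower, like Adcy1, 4.23% and 6.08%. The gene had a fitted peak at 8.3 ± 0.7 h with a ratio of 0.67 ± 0.14, and its night-day log2 difference was -0.25 ± 0.09. The summed RPE markers were also higher at midday without overlap, with 47110 to 56540 CPM at midday (47110 to 52740 CPM without mouse 3 of 6 h), against 38580 to 47080 CPM at onset. Of the 14, 4 had a lower estimate at midday, the median was 0.16 on the log2 scale, and 1 was called higher and 0 lower. Of 12 macrophage and mast cell markers 3 had a lower estimate at midday (median 0.21), and of 5 red blood cell markers 0 did (median 0.41). None of either list was called, and both sums overlapped between midday and onset. All other marker lists had a negative median. The part of these lists in the Pde4b difference was not tested.

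At 9 h Pde4b was at 49.4, 43.2 and 53.0 CPM, against 38.4, 34.9 and 40.6 CPM at 3 h. The ranges did not overlap, and the log2 step was 0.35 ± 0.15. At 16 h it was at 43.2, 38.4 and 46.4 CPM, against 34.4, 37.8 and 27.5 CPM at 15 h, again without overlap (0.36 ± 0.15). Over 22 libraries the 9 h step was 0.36 ± 0.11 and the 16 h step 0.25 ± 0.12. The share of all genes without overlap was not computed for these steps, so nothing is read from the separation.

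Pde4d (ENSMUSG00000021699, chromosome 13, 108449948 to 109953461, plus strand), of the same rolipram-sensitive subfamily, was the lowest of the 9 genes, at 4.21 to 9.29 CPM in the 22 libraries, 2.71 CPM in mouse 3 of 6 h and 0.721 CPM in mouse 3 of 15 h. Only 8 reads were counted in that last library. Its midday estimate was 0.22 ± 0.40, or 0.37 ± 0.21 over 22 libraries. Pde7b (ENSMUSG00000019990, chromosome 10, 20398004 to 20725078, minus strand), a cAMP-specific enzyme that rolipram does not block, had 13.6 to 23.6 CPM in all libraries but mouse 3 of 15 h, where it was at 6.94 CPM. Its night mean was 16.7 ± 1.96 CPM (n = 5) and its day mean 18.6 ± 2.63 CPM (n = 14) over 22 libraries, a difference of -0.14 ± 0.10. For both genes, night and day overlapped.

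Of the other cAMP phosphodiesterases, 11 of 12 were tested, and 0 were called in any comparison over 24 libraries by edgeR, DESeq2 or limma-voom, where edgeR called 1.08% of all genes over time, 1.67% for the 24 h component, 0.387% at midday and 1.39% at night. At an unadjusted p under 0.05, 1 passed over time, 1 at midday, 1 at night and 1 at 16 h against 15 h. For 16 h against 15 h 23.3% of all genes did, and the share was not computed for the others. Over 22 libraries 3 were called over time (Pde3a, Pde1b and Pde3b, adjusted p = 0.0189, 0.0203 and 0.0302), where 15.6% of all genes were. Pde3b, an enzyme inhibited by cyclic GMP, rose at night by 0.67 ± 0.16 (adjusted p = 0.0175). Its levels there were 5.42 to 12.4 CPM in 5 night libraries and 2.88 to 6.73 CPM in 14 day libraries, which overlap. In mouse 3 of 15 h Pde3b was at 1.53 CPM, the lowest of all, and over 24 libraries the estimate was 0.47 ± 0.25.

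**Figure D3:**
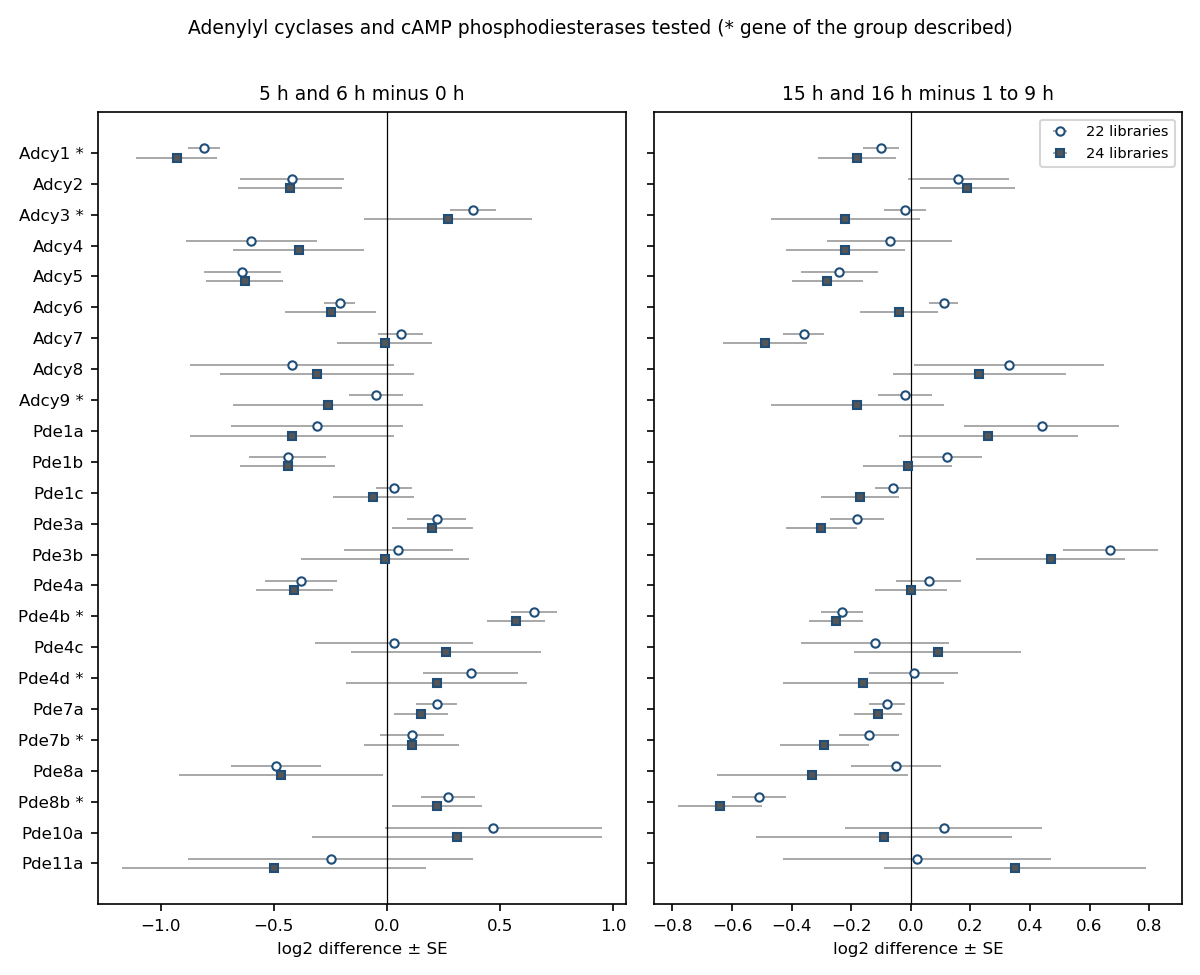
Log2 difference with its SE for every adenylyl cyclase and cAMP phosphodiesterase tested, 5 h and 6 h minus 0 h on the left and 15 h and 16 h minus 1 to 9 h on the right, with squares for 24 libraries and open circles for 22, and stars on the genes described. Of the genes drawn and over 24 libraries, Adcy1 lies furthest below 0 on the left (-0.93) and Pde4b furthest above (0.57), and Pde8b lies furthest below on the right (-0.64).

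Rgs2 (ENSMUSG00000026360, chromosome 1, 143999338 to 144004161, minus strand), which speeds the shut-off of Gq and also restrains some adenylyl cyclases, varied between mice of the same time. Its levels were 20.01, 30.6 and 10.3 CPM at 1 h and 14.6, 32.0 and 13.5 CPM at 3 h. At 6 h they were 20.3, 14.1 and 37.7 CPM, the last in mouse 3, and at 9 h 33.6, 21.0 and 23.2 CPM. No time stood outside the range of the others. The midday estimate was 0.52 ± 0.34 over 24 libraries and 0.29 ± 0.36 over 22, and the night estimate -0.24 ± 0.23.

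Crem (ENSMUSG00000063889, chromosome 18, 3266048 to 3337748, minus strand) encodes a CREB-family factor whose internal promoter makes the short repressor ICER, itself induced by cAMP. Its levels stayed between 7.17 and 11.8 CPM in all 24 libraries. The night mean was 9.84 ± 1.14 CPM (n = 6) and the day mean 8.92 ± 1.43 CPM (n = 15), a difference of 0.14 ± 0.12. The annotation holds 39 transcripts of the gene, and counts per gene do not separate ICER from the longer forms. Of its exonic bases, 8.01% are shared with Gm6225 on the opposite strand.

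Counted over the 9 genes, edgeR called 1 (Adcy1) for variation over the 8 times, where 1.08% of genes were called, and 2 (Adcy1 and Pde8b) for the 24 h component (1.67%). The 24 h call of Adcy1 held in all 30 alternatives. That of Pde8b held in 8 of 30, and in 3 of the 24 that left out 1 library. EdgeR called 1 (Adcy1) at midday (0.387%) and 1 (Pde8b) at night (1.39%), each in the contrast that chose the gene. Over 22 libraries the counts were 4 of 9 over time (15.6%), 3 for 24 h (6.12%), 3 at midday (5.07%) and 1 at night (4.63%). Of all genes tested, 0.0111% were called for 1 h against 0 h, 0.0111% for 3 h against 1 h, 0.0609% for 9 h against 3 h and 0% for 16 h against 15 h, and 0 of the 9 were among them by edgeR, DESeq2 or limma-voom. At an unadjusted p under 0.05 these steps had 0, 0, 2 and 2 of the 9, where 3.94%, 2.31%, 5.46% and 23.3% of all genes had one. Over 22 libraries the shares called were 0.337%, 0.261%, 1.82% and 0%, with 0, 1, 1 and 0 of the 9 among them (Adcy1 in both cases), and 11.7% of genes had an unadjusted p under 0.05 for 16 h against 15 h. The genes were chosen with these time courses known, so nothing is read from their counts. The median midday difference of the 9 genes was 0.22 over 24 libraries, beside 0 for all genes tested, and 0.27 over 22, beside -0.01. The median night difference was -0.22 over 24 libraries and -0.1 over 22, beside -0.01 for all genes in both.

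By rank correlation over the 24 libraries among 11993 genes with at least 5 CPM on average, the genes most like Adcy1 were Lingo3 (0.93), Xylt1 and St3gal1 (0.88 each). Those most like Pde4b were Map6d1 and Lgals3bp (0.83 each) and the clock gene Per2 (0.82), and those most like Pde8b were the T-type calcium channel gene Cacna1h (0.82), Pias3 and Epha8 (0.80 each). For Rgs2 they were Uchl1, Pamr1 (0.90 each) and Mlc1 (0.89), and for Pde7b Stac2 (0.89), Pfkfb3 (0.87) and Cd109 (0.86). The remaining genes had a highest value of 0.82 (Adcy3 with Atat1, Adcy9 with Pdpr), 0.79 (Pde4d with Zswim5) and 0.72 (Crem with Arl8b). The libraries share depth and times, so these are descriptions of likeness. Among the 9 genes themselves, Adcy3 and Pde4b were closest over 24 libraries (0.61, and 0.58 over 22). Pde7b and Rgs2 were closest over 22 (0.71, and 0.51 over 24), and Adcy1 and Pde4b had a value of -0.54 over 22 and -0.31 over 24.

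Beyond these genes, 137 others of the pathway were listed by role and 124 tested. Over 24 libraries 2 were called at midday (Per1 and Per2, clock repressors with CREs), both higher, and 3 at night (Adora2b, Bdnf and Nfil3), all higher. Over 22 libraries, where 125 were tested, 4 rose and 7 fell at midday, and 7 rose and 2 fell at night. Of all genes tested, 0.199% rose and 0.188% fell at midday and 0.88% rose and 0.509% fell at night over 24 libraries, and 2.76%, 2.31%, 2.75% and 1.89% did so over 22. Of 21 receptors coupled to cAMP that were tested, 1 was called at night over 24 libraries and 3 over 22.

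That receptor was Adora2b (ENSMUSG00000018500, chromosome 11, 62248984 to 62266453, plus strand), the adenosine A2B receptor, which stimulates adenylyl cyclase through Gs. Its levels were 101.5, 103.5 and 144 CPM at 15 h and 134, 114.5 and 132 CPM at 16 h. The day libraries had a lowest value of 60.9, a median of 73.1 and a highest value of 99.1 CPM, the last in mouse 3 of 6 h, so night and day did not overlap. Higher at night without overlap were 0.177% of genes, and 0.626% over 22 libraries. Adora2b rose at night by 0.70 ± 0.07 (adjusted p = 1.8e-05) and by 0.62 ± 0.05 over 22 libraries (adjusted p = 2.48e-08). The call held in all 30 alternatives. At onset it was at 82.5, 84.8 and 86.0 CPM, between night and most day libraries, and its fitted 24 h peak lay at 16.2 h. It has a single annotated transcript that shares no exonic bases with another gene.

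Of 15 cAMP-responsive transcripts tested, Bdnf (ENSMUSG00000048482, chromosome 2, 109674700 to 109727007, plus strand), a neurotrophin gene with CREB-driven promoters, and Nfil3, a bZIP repressor of the clock, rose at night. Bdnf was at 22.1, 19.6 and 13.7 CPM at 15 h and 17.8, 15.9 and 17.3 CPM at 16 h, against 7.73 to 14.2 CPM by day. It overlapped the day range only in mouse 3 of 15 h. The log2 difference was 0.71 ± 0.09 (adjusted p = 0.000198), or 0.78 ± 0.08 over 22 libraries, and held in all 30 alternatives. Of its exonic bases, 14.4% are shared with Gm45346 on the opposite strand. Nfil3 rose by 0.83 ± 0.14 (adjusted p = 0.00325), with 13.67 to 16.15 CPM at night and 4.83 to 12.4 CPM by day. At onset Nfil3 was at 10.57 to 17.51 CPM, which overlaps its night range. Summed choroid endothelium and rod markers overlapped between night and day. Inner retina markers summed to 1702 to 2653 CPM at night (2222 to 2653 CPM over 22 libraries) and 1906 to 2330 CPM by day, with a median log2 difference of 0.14. All 5 red blood cell markers had a higher estimate at night (median 0.65, 843.7 to 8767 CPM at night, 843.7 to 1255 CPM over 22 libraries, and 399.5 to 3326 CPM by day). Lens and ciliary body markers had a median of 1.08 (2.449 to 216.6 CPM at night and 0.5756 to 238.3 CPM by day) and skeletal muscle markers one of 0.33 (261.4 to 2044 CPM at night and 190.9 to 1470 CPM by day). No marker of the inner retina, red blood cell, lens or muscle lists was called at night, and the part of these lists in the differences of Adora2b, Bdnf and Nfil3 was not tested.

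**Figure D4:**
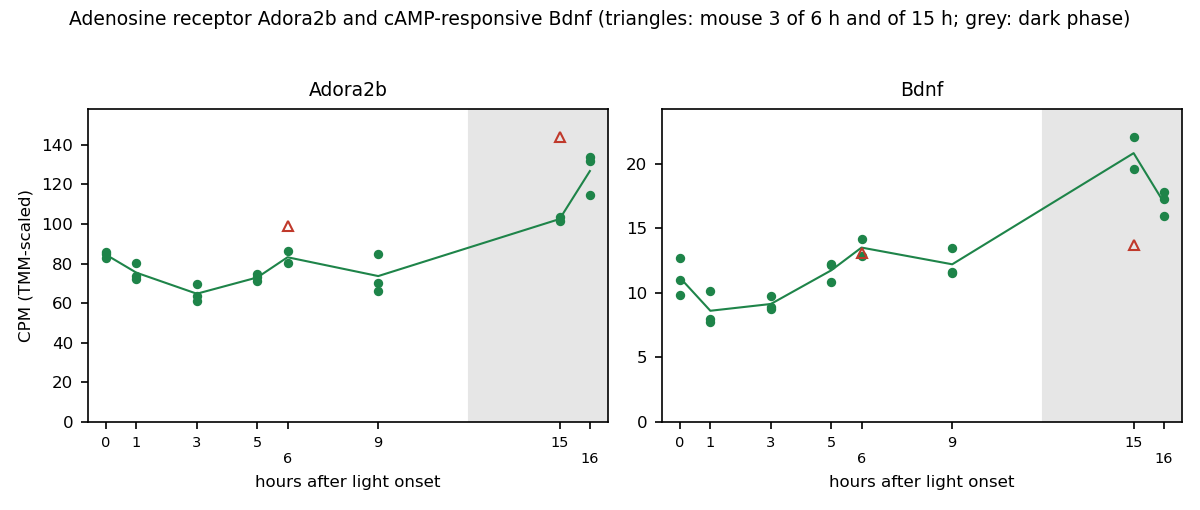
Adora2b (left) and Bdnf (right) in CPM against hours after light onset, 1 dot per mouse with lines through the means of the dots, red triangles for mouse 3 of 6 h and mouse 3 of 15 h, and grey for the dark phase. All 6 night libraries of Adora2b lie above the day libraries, and Bdnf is highest at 15 h apart from the triangle at 13.7 CPM.

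Further genes passed edgeR's test at midday or at night over the 22 libraries and not over 24. Adra2a, the alpha-2A adrenergic receptor that inhibits adenylyl cyclase through Gi, rose at night by 1.20 ± 0.20 (adjusted p = 0.000844), and Adra2c of the same subfamily fell by 0.30 ± 0.07 (adjusted p = 0.0151). Adra2a was low, at 5.66 to 15.7 CPM in 5 night libraries and 1.78 to 6.51 CPM in 14 day libraries, which overlap. Adra2c was at 190 to 225 CPM and 198 to 286 CPM, also overlapping. In mouse 3 of 15 h they were at 3.06 and 388 CPM. Over 24 libraries the differences were 0.99 and -0.13. At midday the receptors Adrb1, the beta-1 adrenergic receptor, and Drd4, a dopamine receptor coupled to Gi, fell by 1.1 ± 0.28 and 2.13 ± 0.54 (adjusted p = 0.0218 and 0.0343). Adrb1 was low throughout, at 1.26 to 2.85 CPM in 5 midday libraries, against 3.24 to 4.075 CPM at onset. Drd4 was at 1.15 to 6.56 CPM, against 14.7 to 17.9 CPM, and at 41.4 CPM in mouse 3 of 15 h. Rod markers were also lower at midday, and their part in these differences was not tested. Rapgef3, which encodes Epac1, rose at midday by 0.28 ± 0.06 (adjusted p = 0.00517), and Akap12, an anchor of protein kinase A, fell by 0.39 ± 0.08 (adjusted p = 0.00605). Of 9 protein kinase A subunits and inhibitors, 0 were called at midday or at night by edgeR over either set, or by DESeq2 or limma-voom over 24 libraries. At an unadjusted p under 0.05 edgeR had 0 at midday and 2 at night over 24 libraries, and 2 and 3 over 22. The share of all genes at that level was not computed there. Over the 22 libraries edgeR called Prkar2a over time (adjusted p = 0.00672) and for the 24 h component (adjusted p = 0.00826). Of all genes, 15.6% and 6.12% were called in these comparisons. DESeq2 called Pkib for the 24 h component over 24 libraries. Of 8 cyclic GMP-specific phosphodiesterases, Pde6a of rod outer segments had a called 24 h component over 24 libraries (ratio 2.39, adjusted p = 0.0178), lost without mouse 1 of 0 h (adjusted p = 0.074). Pde6c, a cone marker, rose at midday over 22 libraries by 0.78 ± 0.22 (adjusted p = 0.0385), and by 0.65 over 24 without a call.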

How the data were processed

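The authors deposited a table of read counts per gene, whole numbers with no normalization, 1 column per mouse, with gene lengths. Per the submitters' processing notes STAR, HTSeq and mm10 were used; the sources used here give no versions, settings or annotation release. Per the labels' protocols, RNA came from the RNAqueous-Micro kit and libraries from a NEBNext Ultra RNA kit, which does not mark strand.

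Counts were filtered with filterByExpr (minimum count 10), scaled by TMM and tested with edgeR 4.0.16 (R 4.3.3; glmQLFit with robust priors), with times as groups in 1 fit of all 24 libraries, and p-values adjusted by Benjamini-Hochberg over the 18065 genes (18388 for 22 libraries). A p-value measures the spread between these mice, labelled as biological replicates. CPM were TMM-scaled, and TPM used the deposited gene lengths. SE of the 24 h curve came from a jackknife. Scripts were tested on simulated data. Alternatives used DESeq2 1.42.0, limma 3.58.1, RLE scaling, no filter, a replicate block, 22 libraries and each library left out. A chi-square comparison of 276 pairs of libraries found none within sampling noise (lowest 5.71 per degree of freedom). Exonic overlap came from GENCODE vM21 (GRCm38).

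Members, pathway lists and marker lists were chosen with earlier results of these data known. Named genes were all 9 members, at most 3 called genes per pathway list and comparison (the smallest adjusted p), and the 3 genes most like each member.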

Additional observations from a re-analysis of the deposited data

Results flagged for a closer look

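In 28 groups of 6 libraries (night and midday, 14 genes), the lowest or highest library was set against its nearest neighbour, and 4 stood out by Dixon's ratio of that gap to the group's range, where chance gives about 1 in 20. All 4 are night values of mouse 3 of 15 h. Adcy9 was at 2.07 CPM there and 17.9 CPM in the next library (ratio 0.767), and Adcy3 at 1.98 and 18.6 CPM (0.684). Adcy7 was at 14.7 and 31.0 CPM (0.669) and Pde8b at 5.41 and 12.1 CPM (0.668). In the same library ribosomal protein genes took 5.12% of counts and mitochondrial transcripts 0.837%, and their part in these values was not tested.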

How the results depend on the processing

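The alternatives were the 22 libraries, RLE scaling, no filter, DESeq2, limma-voom, a replicate block and each library left out. Without mouse 3 of 6 h and mouse 3 of 15 h, members called were 4 over time, 3 at midday, 1 for 3 h against 1 h and 1 for 9 h against 3 h, and other pathway genes called were 32 over time, 12 for 24 h, 11 at midday, 9 at night, 3 for 1 h against 0 h and 4 for 9 h against 3 h. Over 24 libraries these pathway counts were 5, 5, 2, 3, 1 and 1. In the same order, 15.6%, 6.12%, 5.07%, 4.63%, 0.337% and 1.82% of all genes were called over 22 libraries. Over 24 they were 1.08%, 1.67%, 0.387%, 1.39%, 0.0111% and 0.0609%. DESeq2 called 3 members over time and 2 at midday, and 14 pathway genes over time, 9 for 24 h, 5 at midday, 7 at night and 1 for 16 h against 15 h. The share of all genes called by DESeq2 was not computed, so nothing is read from its counts. With no filter 1 member was called for 24 h in place of 2. RLE scaling and limma-voom moved no count of calls by over 1.5 times, and RLE scaling moved the median of all genes by at most 0.007 (log2, midday, lower). The causes were not tested.

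With each library left out, members called were 1 to 3 over time, 1 to 3 for 24 h, 0 to 2 at midday, 0 to 1 at night, 0 to 1 for 16 h against 15 h and 0 to 0 for the other steps. At midday 0 were called when any 1 library of 0 h or of 5 h, or that of the second 6 h mouse, was dropped, and 2 when either library set apart on the first component was. At night 0 were called when any 1 library of 16 h was dropped, or that of the first 1 h mouse, or that of the second 3 h mouse. Pathway genes called were 3 to 19 over time, 3 to 10 for 24 h, 1 to 8 at midday, 3 to 8 at night, 1 to 2 for 1 h against 0 h, 0 to 1 for 3 h against 1 h, 1 to 2 for 9 h against 3 h and 0 to 8 for 16 h against 15 h. The shares of all genes called with a library left out were not computed, so nothing is read from these ranges. Gnaq, at 0.05 for night against day, ranged between -0.09 (mouse 2 of 15 h left out) and 0.21 (mouse 3 left out) and was at -0.02 with mouse 1 left out. Of the values of single genes under all alternatives, 2164 kept direction and side of the threshold, 112 gained a call, 62 lost 1 and 2 changed sign.

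Whether replicate numbers pair the mice is not settled by these values. Of 84 same-numbered pairs 17 correlated over 0.1 (median 0.02, lowest -0.32, highest 0.53), and the median for other numbers was -0.01. Of 24 libraries, 14 were closest to their own number, and the count to be had without pairing was not computed. With the replicate block 1 member was called over time, 2 for 24 h, 1 at midday and 1 at night, and 4, 5, 2 and 3 pathway genes.

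Hours between 9 h and 15 h, and those after 16 h, were not sampled, so peaks there are fitted. With 3 mice per time, counts as low as 8 (Pde4d) limit the precision.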
